A study of Mus musculus with 3 samples.

Results

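Interferon-high tumor myeloid cells were sorted cells of mouse melanomas that carried many transcripts of the antiviral genes Ifit1, Ifit2, Ifit3, Ifit3b and Rsad2. A cell barcode was a member when it held 1000 or more UMIs (unique molecular identifiers, each marking 1 captured transcript), 400 or more genes and no more than 10% of mitochondrial transcripts, with at least 6 UMIs over the 5 genes, these making up at least 0.08% of its UMIs, and at least 3 UMIs of the myeloid lysozyme gene Lyz2. The rule found 579 members among the 8877 barcodes of the 2 tumors that passed the filters, and 14427 barcodes passed them in the whole series. The members numbered 238 in the Treg-depleted tumor and 341 in the control tumor. They were set against interferon-low barcodes, which passed the same filters with 0 or 1 UMI of the 5 genes and no demand on Lyz2, and which numbered 2945 in the Treg-depleted and 3108 in the control tumor.

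The Treg-depleted library came from the tumor labelled FoxP3 DTR, a genotype in which the diphtheria toxin receptor is placed under the Foxp3 gene so that toxin removes regulatory T cells (Treg). The control library came from the tumor labelled WT. Mice of both groups were C57BL/6J with a subcutaneous B16F10 melanoma, a transplanted tumor line, and both tumors went through the same sort for CD45+ cells that lacked CD90, NK1.1, Ly6G, B220 and SigF and carried CD11b, CD11c or both. Each group was 1 library, the Treg-depleted one from a single mouse. The labels do not give the number of mice behind the control library. Genotype, depletion, animal and library therefore cannot be told apart, and no test between tumors could be made. Intervals given with values are exact 95% intervals that cover counting error only, and cells of 1 library are not replicates.

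Type I interferons, made by cells that sense foreign or misplaced nucleic acid, bind a receptor that most cells carry and act through the kinases JAK1 and TYK2. A complex of transcription factors that includes IRF9 then binds the interferon-stimulated response element (ISRE) in promoters of antiviral genes, while interferon gamma has a receptor of its own. In tumors, myeloid cells are a known source of type I interferon and a known target of both kinds, and the genes they switch on include antiviral effectors, GTPases that attack intracellular parasites, antigen presentation genes and chemokines for T cells.

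The promoters of 4 genes that mark these cells are shown because the ISRE core lies in each of them. The core was searched as 2 copies of GAAA with 2 bases of any kind between them, on either strand, and capitals mark its bases. They are RefSeq windows of GRCm38.p6, from 250 bases before to 50 bases after the annotated start, read 5′ to 3′ along the gene's strand: Rsad2 at chr12:26456403-26456702 (minus strand), Ifit1 at chr19:34640639-34640938 (plus), Isg15 at chr4:156200769-156201068 (minus) and Cxcl10 at chr5:92348840-92349139 (minus).
Rsad2: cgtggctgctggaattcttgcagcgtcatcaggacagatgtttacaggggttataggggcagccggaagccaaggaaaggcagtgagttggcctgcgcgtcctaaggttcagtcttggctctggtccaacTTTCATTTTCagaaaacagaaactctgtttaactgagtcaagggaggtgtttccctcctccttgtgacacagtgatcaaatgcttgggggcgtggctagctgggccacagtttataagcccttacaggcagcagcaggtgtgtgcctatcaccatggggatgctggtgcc
Ifit1: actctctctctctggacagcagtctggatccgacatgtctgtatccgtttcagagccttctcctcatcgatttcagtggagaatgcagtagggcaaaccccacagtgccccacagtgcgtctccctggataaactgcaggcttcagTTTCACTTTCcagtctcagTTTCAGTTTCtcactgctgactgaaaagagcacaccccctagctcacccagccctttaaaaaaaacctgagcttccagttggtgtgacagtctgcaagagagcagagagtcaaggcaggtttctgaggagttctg
Isg15: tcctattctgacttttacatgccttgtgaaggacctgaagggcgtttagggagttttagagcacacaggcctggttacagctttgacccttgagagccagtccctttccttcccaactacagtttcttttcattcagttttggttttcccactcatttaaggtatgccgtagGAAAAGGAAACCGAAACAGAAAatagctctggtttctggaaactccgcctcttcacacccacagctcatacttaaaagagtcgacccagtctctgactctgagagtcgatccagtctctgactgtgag
Cxcl10: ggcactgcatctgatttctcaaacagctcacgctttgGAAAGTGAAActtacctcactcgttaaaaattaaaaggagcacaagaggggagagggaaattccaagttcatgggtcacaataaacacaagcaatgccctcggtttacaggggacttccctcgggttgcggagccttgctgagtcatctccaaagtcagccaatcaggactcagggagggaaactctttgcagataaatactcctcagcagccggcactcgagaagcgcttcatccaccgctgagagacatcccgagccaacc

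The Ifit1 window held 2 non-overlapping matches and the Isg15 window 3 that overlap. The core was present in the windows of 3.99% of the 27025 genes that had one. Of genes with a window that entered the comparison of members with interferon-low barcodes, 234 of 5396 (4.34%) held it in the Treg-depleted tumor. The share in the control tumor was 284 of 6834 (4.16%). The core was present in 40 of 146 genes with a window (27.4%) among those at least 2-fold higher in members of the Treg-depleted tumor, and in 35 of 125 (28.0%) among those of the control tumor. Genes at least 2-fold lower held it in 4 of 216 (1.85%) and 6 of 165 (3.64%) cases in these tumors. Of the 5 genes that chose the members, 4 held the core, so these shares describe the selection. No match to these letters lay in the windows of Cmpk2, Oasl1, Isg20 or Cxcl9, and no window was listed for Usp18, Mx1 and Ccl4. A match describes the letters of the window and is not a bound site.

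The selecting genes lie in 2 places. Ifit2, Ifit3, Ifit3b and Ifit1, which encode tetratricopeptide proteins that bind foreign RNA, form a cluster on chromosome 19 that runs from 34550694 to 34650009 (mm10). Rsad2, which encodes viperin, an enzyme that makes a chain-terminating nucleotide, lies at 26442746 to 26456452 on chromosome 12, beside Cmpk2 at 26469204 to 26479837. Sequence is shared within the Ifit family, so the split of UMIs between its members depends on how reads were assigned upstream. The 5-gene sum ran from 6 UMIs to a median of 12 and a maximum of 192 in members of the Treg-depleted tumor, and from 6 to a median of 15 and a maximum of 267 in those of the control tumor.

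Rsad2 gave most of the signal that chose the members. It made up 62.8% of the 5-gene UMIs in members of the Treg-depleted tumor and 49.9% in those of the control tumor, and was the gene with the most UMIs in 196 of 238 and 242 of 341 members. Its level was 2175 against 48.4 CPM (UMIs of a gene summed over a group of barcodes, scaled to the group's total of 1000000) in members and interferon-low barcodes of the Treg-depleted tumor, and 1357 against 18.6 CPM in those of the control tumor. Ifit3 gave 8.38% of the sum in the Treg-depleted and 15.7% in the control members. All 5 genes were detected together in 17 of the Treg-depleted and 86 of the control members, whose median totals were 5186.5 and 7443 UMIs. No Ifit UMI at all was found in 24 (10.1%) and 33 (9.68%) members. These genes chose the barcodes, so their values describe the selection.

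Members were 5.37% (4.72 to 6.07) of the filtered barcodes of the Treg-depleted tumor and 7.67% (6.91 to 8.50) of those of the control tumor. The Lyz2 clause acted very unequally on the 2 libraries. Without it, 538 barcodes or 12.1% (11.2 to 13.1) of the Treg-depleted tumor met the rule, against 365 or 8.22% (7.42 to 9.06) of the control tumor. The clause thus took away 300 barcodes (55.8%) in the Treg-depleted and 24 (6.58%) in the control tumor, and the order of the 2 shares turned over. The median barcode held 3 Lyz2 UMIs in the Treg-depleted and 69 in the control tumor, and 54.1% and 93.2% of barcodes reached 3. Among barcodes with at least 3 Lyz2 UMIs, members were 9.92% (8.75 to 11.2) in the Treg-depleted and 8.24% (7.42 to 9.12) in the control tumor. No direction between the tumors is therefore given for the share of interferon-high cells.

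**Figure D1:**
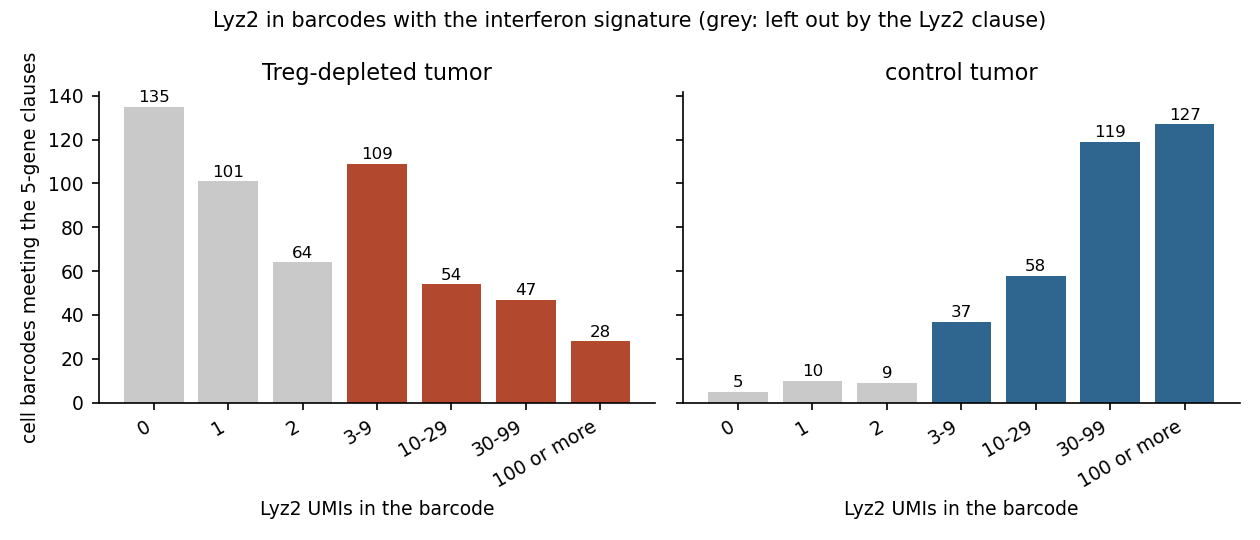
Number of cell barcodes that met the 5-gene clauses (y axis) by their Lyz2 UMIs (x axis) in the Treg-depleted tumor (left) and the control tumor (right), with grey bars for barcodes that the Lyz2 clause left out. In the Treg-depleted tumor 135 barcodes had 0 Lyz2 UMIs and 28 had 100 or more, while the control tumor had 5 and 127.

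The 300 Treg-depleted barcodes that failed only the Lyz2 clause had a median of 3162 UMIs and 11 UMIs of the 5 genes. Against the members of that tumor they had lower levels of the monocyte genes Ly6c2 (log2 ratio −1.76) and Plac8 (−1.80). They had higher levels of Ccl17 (2.21), a chemokine gene of dendritic cells, of the immediate early genes Egr1 (1.79) and Atf3 (1.60), and of Ccl4 (1.44). Of these barcodes 57 (19.0%) had 10 or more UMIs of the neutrophil genes S100a8 and S100a9, against 18 of the 238 members (7.56%).

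Counts at the edges of the rule were alike for a 5-gene sum of 6 or 5 UMIs and unlike for the other clauses. A sum of 6 UMIs, just inside, was found in 33 members of each tumor, and a sum of 5 in 40 barcodes of the Treg-depleted and 41 of the control tumor that met every other clause. At a sum of 4 the counts of such barcodes were 39 in the Treg-depleted and 23 in the control tumor. The clause of 0.08% kept out 16 barcodes of the Treg-depleted and 183 of the control tumor, whose barcodes were deeper. With every barcode of at least 2000 UMIs thinned to 2000, a sum of at least 3 and at least 1 Lyz2 UMI, the share was 9.65% in the Treg-depleted and 6.78% in the control tumor. The plot of shares by setting gives the Treg-depleted tumor the lower share under 9 settings and the higher one under 3.

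**Figure D2:**
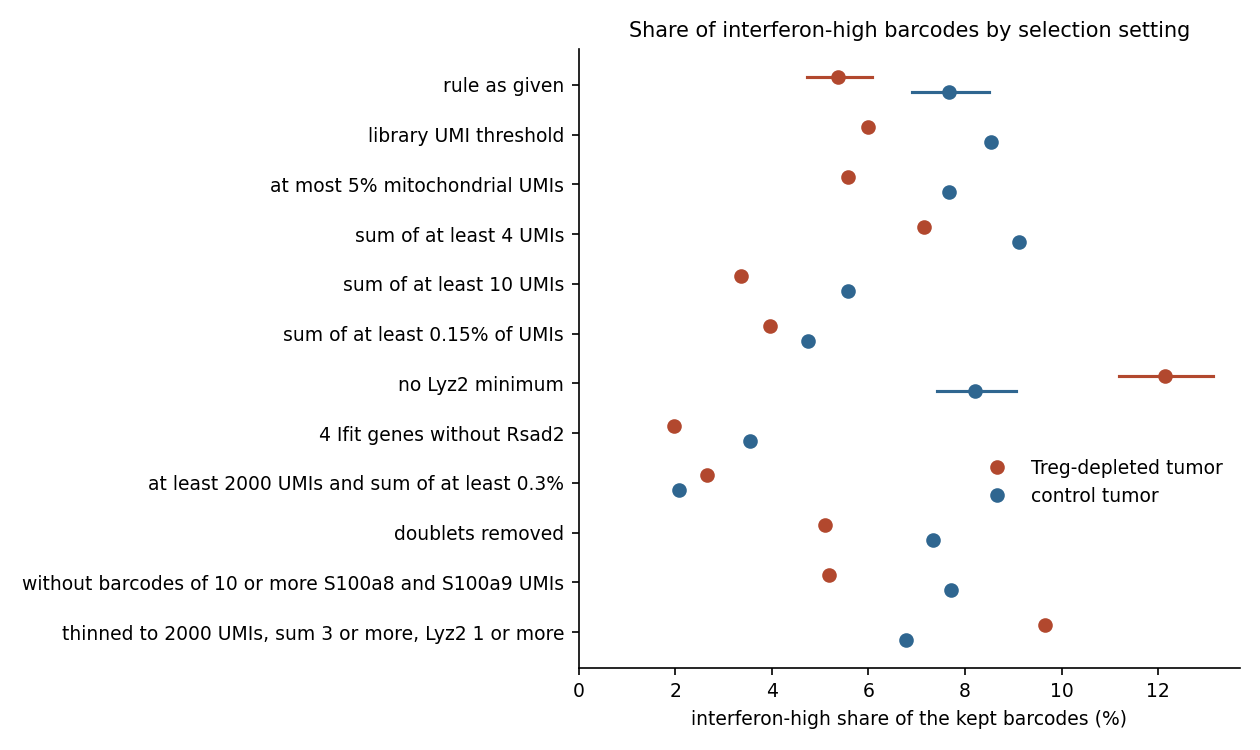
Share of filtered barcodes called interferon-high (x axis, percent) in the Treg-depleted tumor (red) and the control tumor (blue) under the rule as given and 11 other settings (rows); lines are exact 95% intervals, drawn for the rule as given and without the Lyz2 clause. The red point lies right of the blue one without the Lyz2 clause (12.1% and 8.22%), at a sum of at least 0.3% with 2000 UMIs (2.66% and 2.08%) and after thinning (9.65% and 6.78%).

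Of the 5 markers given for these cells, Rsad2, Ifit1 and Ifit3 chose them, which leaves Isg15 and Iigp1 outside the rule. The markers were chosen with earlier results of these data known. The values of Isg15 and Iigp1 therefore describe the members and are not an independent check of the label. Isg15, which encodes a ubiquitin-like protein attached to other proteins, was not in the rule and was found in 234 of 238 members of the Treg-depleted tumor (median 16 UMIs, maximum 161) and 340 of 341 of the control tumor (median 25, maximum 250). At 2000 UMIs a barcode, Isg15 was detected in 95.6% of members and 61.8% of interferon-low barcodes of the Treg-depleted tumor, and in 96.2% and 55.3% of those of the control tumor. Iigp1, an immunity-related GTPase gene, was detected at that depth in 43.7% of members and 18.3% of interferon-low barcodes of the Treg-depleted tumor, against 17.4% and 6.67% in the control tumor. Unthinned, Iigp1 was found in 62.2% and 27.6% of the Treg-depleted and 39.3% and 14.2% of the control barcodes.

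Depth and cell quality were as follows. The libraries held 23291061 UMIs in the Treg-depleted and 42493416 in the control tumor, and the members' UMIs summed to 1357733 and 3406633. Members were deeper than interferon-low barcodes, with medians of 5186.5 against 3687 UMIs in the Treg-depleted and 7443 against 5786.5 in the control tumor. Median mitochondrial shares were 2.22% in the Treg-depleted and 2.02% in the control members. The tumors shared 36 barcode sequences and no member's. Of the members, 20 (8.4%) in the Treg-depleted and 27 (7.92%) in the control tumor were among the 3.54% and 3.56% of barcodes with the highest doublet scores. In near-empty barcodes of 10 to 100 UMIs, taken as free RNA, Rsad2 stood at 519 CPM in the Treg-depleted and 185 CPM in the control library, below its level in members.

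A gene was counted where at least 10 UMIs of it were expected in the smaller group if its share of UMIs were equal in both. The 5 selecting genes and Lyz2 were left out. In the Treg-depleted tumor, 198 of 6943 counted genes (2.85%) were at least 2-fold higher in members than in interferon-low barcodes and 279 (4.02%) at least 2-fold lower, with a median log2 ratio of −0.10. In the control tumor 178 of 8807 (2.02%) were higher and 221 (2.51%) lower, again with a median of −0.10. Of the 6894 genes counted in both tumors, 86 were at least 2-fold higher in both, which is 45.5% of the 189 higher in the Treg-depleted and 61.4% of the 140 higher in the control tumor. There were 17 lower in both, 6.27% of 271 in the Treg-depleted and 32.1% of 53 in the control tumor. Members were selected on transcripts of the same barcodes, so all ratios within a tumor are descriptions.

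Antiviral effector genes were higher in members of both tumors for most genes counted. At least 2-fold higher were 34 of 46 counted genes in the Treg-depleted tumor (median log2 ratio 1.37) and 29 of 47 in the control tumor (1.28), and none was at least 2-fold lower in either. Cmpk2, a mitochondrial nucleotide kinase gene next to Rsad2, stood at 200.3 CPM in members and 11.3 CPM in interferon-low barcodes of the Treg-depleted tumor, a log2 ratio of 4.15 (3.85 to 4.45). In the control tumor it stood at 131 and 4.66 CPM (4.81, 4.51 to 5.13). Detection of Cmpk2 was nevertheless partial, with at least 1 UMI in 119 of 238 Treg-depleted and 150 of 341 control members.

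Mx1, which encodes a GTPase that traps viral nucleocapsids, had ratios of 3.14 (2.72 to 3.56) in the Treg-depleted and 3.23 (2.93 to 3.53) in the control tumor. Isg20, an exonuclease gene, had 2.72 and 2.41, and Oasl1, a gene of the oligoadenylate synthetase family, had 2.24 and 2.80. Phf11d had 2.85 and 2.44, Slfn4 2.28 and 2.23, and Ifi44 3.05 and 2.40. The membrane protein gene Ifitm3 was abundant in members, at 4805 CPM in the Treg-depleted and 4768 CPM in the control tumor, but stayed under 2-fold above interferon-low barcodes (0.91 and 0.49). The control tumor's largest ratio was that of Ifit1bl1 (6.08, 5.49 to 6.74), which shares sequence with the selecting gene Ifit1.

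Genes of the ISG15 pathway, whose enzymes attach ISG15 and take it off, were at least 2-fold higher in 5 of 6 cases in each tumor (medians 1.83 in the Treg-depleted and 1.71 in the control tumor). Isg15 itself stood at 4175 CPM in members and 808 CPM in interferon-low barcodes of the Treg-depleted tumor (2.37, 2.32 to 2.42), and at 3222 and 652 CPM in those of the control tumor (2.30, 2.27 to 2.34). Usp18, which encodes the protease that removes ISG15 and also blocks the type I receptor, had 2.75 (2.52 to 2.98) in the Treg-depleted and 3.30 (3.13 to 3.47) in the control tumor. Herc6, the ISG15 ligase gene in mice, had 2.48 and 2.39. Trim25 was the gene under 2-fold, at 0.25 and 0.41.

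Sensors of nucleic acid were at least 2-fold higher in 11 of 16 counted cases in the Treg-depleted tumor (median 1.57) and 9 of 18 in the control tumor (1.01). The RNA sensor genes Ifih1, for MDA5, and Ddx58, for RIG-I, had ratios of 2.47 and 2.24 in the Treg-depleted and 2.42 and 2.06 in the control tumor. The DNA sensor family gene Ifi204 had 1.41 and 1.24. Zbp1, whose product binds Z-form nucleic acid, had 1.13 (1.03 to 1.23) in the Treg-depleted and 0.94 (0.86 to 1.01) in the control tumor.

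GTPases of cell-autonomous defence were higher in members of both tumors in part of the cases, with larger list medians in the Treg-depleted tumor. The difference between tumors was not tested, and it was not seen in every gene, with Gbp4 at 1.10 and 1.16 and Gm4951 at 1.68 and 1.87 in the Treg-depleted and control tumors. Immunity-related GTPase (IRG) genes, whose products break up parasite vacuoles, were at least 2-fold higher in 10 of 10 counted cases in the Treg-depleted tumor (median 1.69) and in 6 of 10 in the control tumor (1.08). Guanylate-binding protein genes were higher in 7 of 9 (1.43), with 1 lower, and in 2 of 9 (0.79) in these tumors. Iigp1 stood at 532 CPM in members and 163 CPM in interferon-low barcodes of the Treg-depleted tumor (1.70, 1.58 to 1.83), and at 134 and 53.8 CPM in those of the control tumor (1.32, 1.16 to 1.47). Igtp differed more between tumors, with 1.94 (1.77 to 2.11) in the Treg-depleted and 0.67 (0.52 to 0.82) in the control tumor. Gbp2 was at 1433 and 532 CPM in the Treg-depleted tumor (1.43) and at 718 and 416 CPM in the control tumor (0.79). F830016B08Rik, listed with the IRG genes, was among the 12 largest ratios of the Treg-depleted tumor (2.81). Near-identical copies in both families make the values of single members uncertain.

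**Figure D3:**
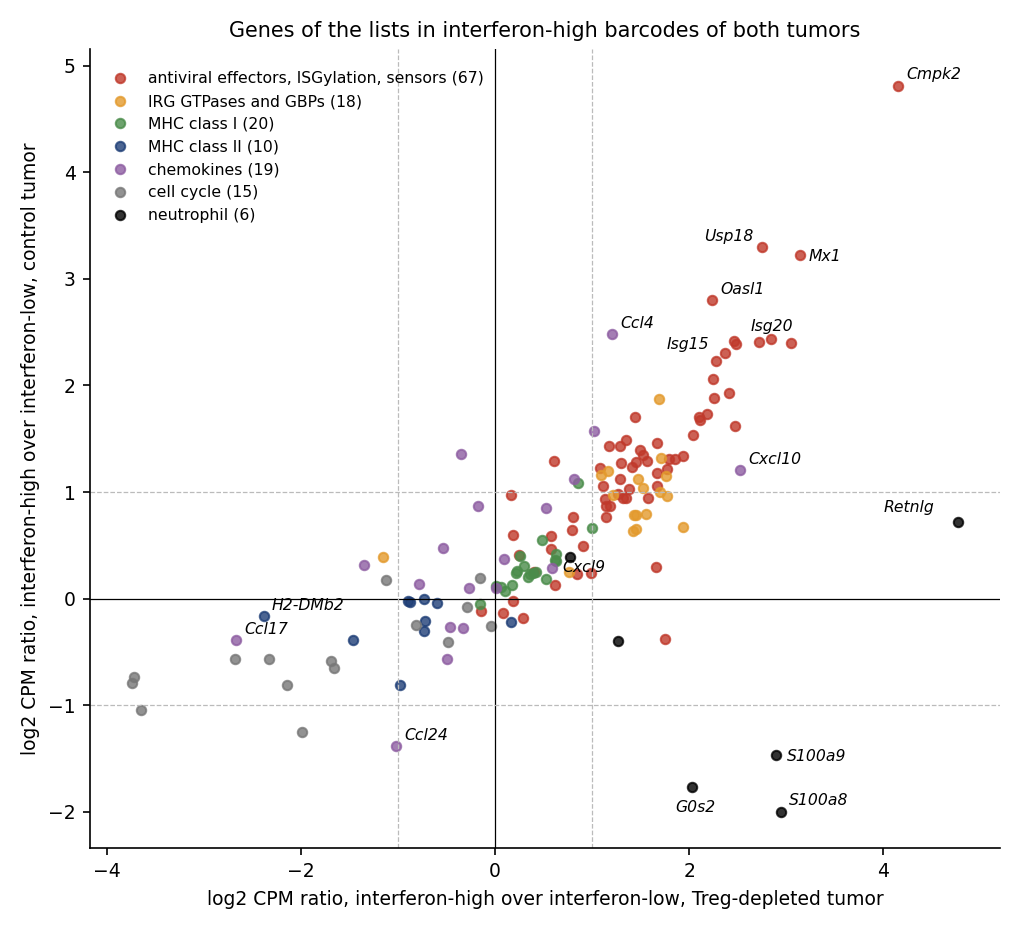
Log2 CPM ratio of interferon-high over interferon-low barcodes in the Treg-depleted tumor (x axis) and the control tumor (y axis), 1 point per gene counted in both and coloured by gene list; dashed lines mark 2-fold. Cmpk2 lies at 4.15 and 4.81 in the upper right, while S100a8 lies at 2.94 and −2.0 in the lower right.

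Genes of the signalling pathway had smaller ratios than the antiviral effectors. In the JAK-STAT and IRF list 2 of 13 genes in the Treg-depleted tumor (median 0.39) and 1 of 13 in the control tumor (0.13) were at least 2-fold higher. Irf7, the factor that amplifies type I interferon production, was the gene past 2-fold in both, at 573 and 146 CPM in members and interferon-low barcodes of the Treg-depleted tumor (1.98) and 757 and 256 CPM in those of the control tumor (1.56). Stat2 had 1.30 and 0.96, and Irf1, a target of interferon gamma signalling, 0.64 and 0.02. The 5 counted receptor genes stayed under 2-fold in both tumors, with Ifnar1 at 0.12 and 0.03. Among feedback inhibitors 3 of 9 were higher in each tumor, and Socs1 had 1.15 in the Treg-depleted and 1.01 in the control tumor.

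The chemokine genes split by gene and by tumor. Cxcl10, whose product draws CXCR3-bearing T cells, stood at 1212 CPM in members and 211 CPM in interferon-low barcodes of the Treg-depleted tumor (2.52, 2.43 to 2.61), and at 1021 and 443 CPM in those of the control tumor (1.2, 1.15 to 1.26). Cxcl9, a ligand of the same receptor that depends on interferon gamma, was at 256 and 171 CPM (0.58) in the Treg-depleted and at 510.2 and 417 CPM (0.29) in the control tumor. Ccl4, a chemokine gene of activated macrophages, was at 3096 and 1340 CPM in the Treg-depleted (1.21) and at 3452 and 619 CPM in the control tumor (2.48, 2.44 to 2.52). Without barcodes rich in S100a8 and S100a9 the Treg-depleted ratio of Ccl4 was 0.94, and as a mean over barcodes it was 0.58. Over all settings the Ccl4 ratio ran from 0.58 to 2.03 in the Treg-depleted and from 1.91 to 2.93 in the control tumor. The 300 Treg-depleted barcodes that failed only the Lyz2 clause, which are not members, had Ccl4 at 8420 CPM.

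Ccl7, a CCR2 ligand that draws monocytes, stood at 2532 CPM in members and 3238 CPM in interferon-low barcodes of the Treg-depleted tumor (−0.35, −0.41 to −0.30), and at 3103 and 1213 CPM in those of the control tumor (1.36, 1.32 to 1.39). Members were thus lower than interferon-low barcodes in the Treg-depleted tumor and higher in the control tumor. Ccl12, another CCR2 ligand, had 1.02 in the Treg-depleted and 1.57 in the control tumor. Ccl17, a CCR4 ligand, was at 207 CPM in members and 1317 CPM in interferon-low barcodes of the Treg-depleted tumor (−2.67, −2.85 to −2.50), and at 45.5 and 59.7 CPM in those of the control tumor (−0.39). Over all settings the Ccl17 ratio ran from −3.32 to −1.28 in the Treg-depleted and from −0.95 to −0.11 in the control tumor.

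Antigen presentation genes were nearly level for class I and lower for class II in 1 tumor. For MHC class I and its peptide loading, 1 of 20 counted genes in the Treg-depleted tumor (median 0.35) and 2 of 21 in the control tumor (0.25) were at least 2-fold higher. The class I light chain gene B2m stood at 12072 and 9016 CPM in members and interferon-low barcodes of the Treg-depleted tumor (0.42) and at 9396 and 7889 CPM in those of the control tumor (0.25). MHC class II had a median of −0.81 with 2 of 10 genes at least 2-fold lower in the Treg-depleted tumor, and −0.19 with 0 of 10 in the control tumor. H2-Aa, a class II alpha chain gene, was at 2411 and 4013 CPM in the Treg-depleted and 7823 and 7843 CPM in the control tumor.

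Of ligands that speak to T cells, Cd274, the gene of PD-L1, had 1.00 (0.89 to 1.10) in the Treg-depleted and 0.59 (0.48 to 0.69) in the control tumor, and Cd40 had 0.81 and 1.02. Il15, a growth factor gene for NK and memory T cells, stood at 64.8 and 14.1 CPM in members and interferon-low barcodes of the Treg-depleted tumor (2.20) and at 56.7 and 15.2 CPM in those of the control tumor (1.90). Its receptor chain gene Il15ra, which presents the cytokine, had 1.67 and 1.30. Tnf, an NF-kB target, was at 0.05 in the Treg-depleted and 1.09 in the control tumor, and over the NF-kB list 1 of 20 genes in each tumor was at least 2-fold higher (medians 0.13 and 0.00).

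Genes that mark kinds of myeloid cell were also compared between members and interferon-low barcodes. Genes of conventional dendritic cells of type 2 (cDC2) were at least 2-fold lower in 4 of 5 cases in the Treg-depleted tumor (median −1.27) and in 0 of 6 in the control tumor (−0.72). Classical monocyte genes were at least 2-fold higher in 3 of 8 cases (median 0.52) in the Treg-depleted and 0 of 8 (−0.03) in the control tumor. Plac8, a gene high in Ly6C+ monocytes, was at 4348 and 1984 CPM in members and interferon-low barcodes of the Treg-depleted tumor (1.13) and at 2299 and 1969 CPM in those of the control tumor (0.22). The rule asks Lyz2 of members alone. Against interferon-low barcodes with at least 3 Lyz2 UMIs, the Treg-depleted median of the classical monocyte list was 0.27 and the ratio of Plac8 0.87. Over all settings this median ran from 0.07 to 0.77, Plac8 from 0.58 to 1.31 and Ly6c2 from 0.35 to 1.05. Treg-depleted barcodes that failed only the Lyz2 clause had Plac8 at 1252 CPM. Genes of alternative activation were lower in 4 of 16 cases in the Treg-depleted tumor (median −0.32), among them Retnla (−1.22) and Mgl2 (−1.48), while 2 of 17 were higher and 1 lower in the control tumor (0.09). In the Treg-depleted tumor Retnla ran from −1.76 to −1.12 and Mgl2 from −1.92 to −0.98 over all settings. Macrophage genes had medians of −0.29 and 0.09 with none past 2-fold.

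Cell cycle genes had medians of −1.68 in the Treg-depleted tumor, with 10 of 15 counted genes at least 2-fold lower, and −0.57 in the control tumor, with 3 of 19. Their counts were small: Rrm2, a subunit gene of ribonucleotide reductase, was at 0.737 CPM in members and 9.69 CPM in interferon-low barcodes of the Treg-depleted tumor, and at 4.70 and 7.83 CPM in those of the control tumor. The median of the list ran from −2.21 to −0.32 over the settings tried in the Treg-depleted tumor.

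Among the 12 smallest ratios of the Treg-depleted tumor were also the class II chaperone gene H2-DMb2 (−2.38), the microtubule regulator gene Stmn1, the ribonuclease genes Ear2 and Rnase2a, the heat shock genes Hsph1 and Hspa1a (−1.49), the chemokine gene Ccl22, Plet1 and Ramp3. Those of the control tumor were Ly6d and Plet1 (−5.65 and −3.17), S100a8, S100a9, Ccl24, Gcnt2, Nop58, Gsr, Cd209a, Fdps, Klrd1 and Hp. Ly6d is a marker of plasmacytoid dendritic cells, and 5 of 6 such markers were at least 2-fold lower in members of the control tumor (summed level 52.3 CPM in members and 206 CPM in interferon-low barcodes). Siglech, the defining one, had 0 UMIs in Treg-depleted and 2 UMIs in control members. Against interferon-low barcodes with at least 3 Lyz2 UMIs the control median of this list was −3.71, in place of −5.40.

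Some members also held transcripts that mark other cell types. At least 1 UMI of S100a8 or S100a9 was found in 83 of 238 Treg-depleted and 19 of 341 control members, and at least 1 UMI of Ccr7 or Fscn1, genes of migratory dendritic cells, in 15 and 82 members. Leaving out members with any UMI of the first 2 markers of another cell type kept 132 Treg-depleted and 200 control members. In the Treg-depleted tumor the melanoma genes Pmel, Mlana and Dct had the largest ratios of all (7.0, 6.64 and 6.58), but 793 of the 803 UMIs of Pmel, Dct, Mlana and Tyrp1 lay in 1 barcode of 35018 UMIs, and without barcodes of 10 or more such UMIs the ratios of Pmel, Mlana and Dct were 1.25, 0.08 and 0.00. The same 4 genes had 89 UMIs in control members, 39 of them in 1 barcode. Neutrophil genes were at least 2-fold higher in 5 of 6 counted cases in the Treg-depleted tumor (median 2.46, summed level 3409 CPM in members and 485.5 CPM in interferon-low barcodes) and lower in 3 of 6 in the control tumor (−0.93; 117 and 230.1 CPM).

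The alarmin genes S100a8 and S100a9, abundant in neutrophils, had ratios of 2.94 and 2.89 in the Treg-depleted tumor, against −2.0 and −1.47 in the control tumor. In the Treg-depleted tumor 18 members (7.56%) held 97.1% of the 4020 UMIs of the pair, and without barcodes of 10 or more such UMIs the ratios were 0.44 and 0.06. The remaining neutrophil gene among the largest, Retnlg, had 4.77, and 1.65 without those barcodes. The defining T cell genes Cd3e and Cd3d had 0 UMIs in Treg-depleted and 1 UMI in control members, the NK cell genes Ncr1 and Klrb1c had 1 and 0, and the B cell genes Cd79a and Cd79b had 0 and 15. The part of these barcodes in other results was not tested beyond the values given without them.

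Transcripts of interferon beta, encoded by Ifnb1, were found in few members. Near-empty barcodes had Ifnb1 at 10.5 CPM in the Treg-depleted and 7.65 CPM in the control library, above the 2.46 and 0.396 CPM of interferon-low barcodes. Members stood at 36.1 and 32.6 CPM, and a UMI in a barcode is not read as expression in that cell. In the Treg-depleted tumor 5 of 238 members (2.10%, 0.686 to 4.83) had 49 UMIs, 41 of them in 1 barcode, and 10 of the 300 barcodes that the Lyz2 clause left out held a further 74. Members of the Treg-depleted tumor thus held 29.7% of its 165 Ifnb1 UMIs and the Lyz2-poor barcodes 44.8%. Of its interferon-low barcodes 13 of 2945 (0.441%, 0.235 to 0.754) had an Ifnb1 UMI. In the control tumor 24 of 341 members (7.04%, 4.56 to 10.3) had at least 1 Ifnb1 UMI, against 7 of 3108 interferon-low barcodes (0.225%, 0.0906 to 0.463). Control members held 111 of the 160 Ifnb1 UMIs in filtered barcodes (69.4%), with at most 14 in 1 barcode, while they were 7.67% of the barcodes. Median depths were 16312.5 UMIs in the 24 control members with Ifnb1 and 7333 in the other 317; the part of depth in this detection was not tested.

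Of the interferon alpha genes Ifna2, Ifna4 and Ifna5, members held 0 UMIs in the Treg-depleted tumor and 1 UMI, of Ifna2, in the control tumor. Ifng, the interferon gamma gene that T and NK cells express, had 0 UMIs in members of both tumors; a count of 0, read as up to 3 counts, allows up to 1.26% of members in the Treg-depleted and 0.880% in the control tumor to carry a UMI, which is not a limit on cells that express the gene. The 5 Treg-depleted members with Ifnb1 had Ccl4 at 26210 CPM and the other 233 at 2475 CPM. The 24 control members with Ifnb1 had 12376 CPM and the other 317 had 2263 CPM. Irf7 was lower in members with Ifnb1, at 225 and 582 CPM in Treg-depleted members with and without it. In control members with and without Ifnb1, Irf7 was at 292 and 819 CPM. The Treg-depleted values with Ifnb1 rest on 5 barcodes, 1 of which held 41 of their 49 Ifnb1 UMIs. Ccl4 reached 410 UMIs in 1 Treg-depleted member, and the part of single barcodes in these levels was not tested.

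Levels were also followed over the strength of the signature. Members were placed in 4 steps by the 5-gene share of their UMIs, up to 0.6% and over, of which each tumor had 36. Before them stand interferon-low barcodes and those between the groups (951 in the Treg-depleted and 970 in the control tumor), without the barcodes that failed the Lyz2 clause alone. Isg15 climbed through all steps, from 808 CPM in interferon-low barcodes to 8081 CPM at the top in the Treg-depleted tumor and from 652 to 7082 CPM in the control tumor. Cxcl10 ran from 211 to 2635 CPM in the Treg-depleted and from 443 to 3218 CPM in the control tumor. Ccl4 reached 11985 CPM in the top step of the Treg-depleted tumor after 2238 CPM in the step under it, and 9353 after 5419 CPM in the control tumor. S100a8 stood at 6510 CPM in the same Treg-depleted top step, after 597 CPM in the step under it. The part of barcodes rich in S100a8 in this Ccl4 level was not tested.

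Cxcl9 stayed between 171 and 297 CPM in the Treg-depleted tumor. It climbed there up to the step of 0.3 to 0.6% and stood at 193 CPM, on 34 UMIs, in the top step. In the control tumor Cxcl9 stayed between 407 and 620 CPM, with no steady order. Iigp1 was at 163 CPM in interferon-low barcodes of the Treg-depleted tumor, 627 CPM in the weakest members and 438 CPM in the strongest, while in the control tumor it went from 53.8 CPM in interferon-low barcodes to 246 CPM in the strongest members. Igtp reached its highest level at 0.3 to 0.6% in the Treg-depleted tumor (466 CPM) and climbed through every step in the control tumor, from 83.7 to 226 CPM. Ifnb1 stood at 219 CPM in the top step of the control tumor, on 64 UMIs. The 267.5 CPM of the Treg-depleted top step rest on 47 UMIs, with 41 of the members' UMIs in 1 barcode, and 74 further UMIs lay in barcodes that failed the Lyz2 clause alone (68.2 CPM).

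**Figure D4:**
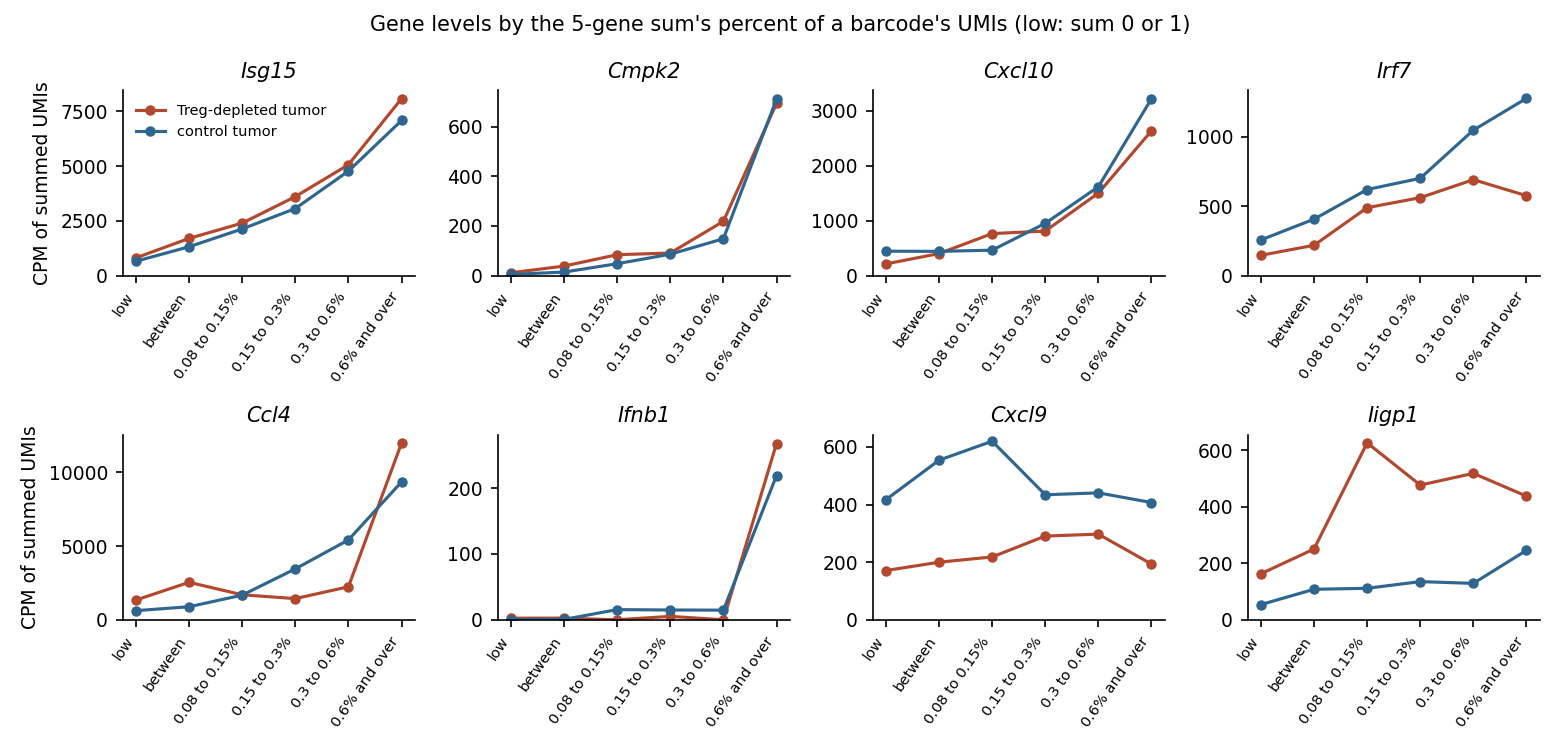
CPM of summed UMIs (y axis) of 8 genes by the 5-gene sum as a percent of a barcode's UMIs (x axis, interferon-low at the left) in the Treg-depleted tumor (red) and the control tumor (blue). Isg15 climbs to 8081 and 7082 CPM, Cxcl9 stays within 171 to 297 and 407 to 620 CPM, and Ifnb1 is at 267.5 and 219 CPM in the top step, where in the Treg-depleted tumor most of its UMIs are from 1 barcode.

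Members were not 1 kind of myeloid cell. Macrophage-type barcodes with at least 10 UMIs of the complement genes C1qa, C1qb and C1qc were 28 (11.8%) of the Treg-depleted and 181 (53.1%) of the control members. Barcodes with at least 3 UMIs of the monocyte gene Ly6c2 and at most 2 of C1q were 124 (52.1%) and 74 (21.7%). At 2000 UMIs a barcode, C1q was detected in 35.4% of members and 47.4% of interferon-low barcodes of the Treg-depleted tumor, and in 71.1% and 60.2% of those of the control tumor. Ly6c2 was detected in 73.8% and 60.0% in the Treg-depleted and 51.3% and 44.1% in the control tumor.

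The response differed between C1q-rich and C1q-poor members alike in both tumors for several genes. Gbp2 stood at 640.5 CPM in members with at least 10 C1q UMIs and 1728 CPM in those with at most 2 in the Treg-depleted tumor, and at 463 and 1319 CPM in the control tumor. Cxcl10 stood at 614 and 1498 CPM in the Treg-depleted and 820.4 and 1672 CPM in the control tumor. Irf7 followed, at 463 and 677 CPM in the Treg-depleted and 660.0 and 1077 CPM in the control tumor. Rsad2, which chose the members, had 2594 and 2073 CPM in the Treg-depleted and 1280 and 1672 CPM in the control tumor. C1q-rich members were deeper, with medians of 5867 against 4979 UMIs in the Treg-depleted and 10613 against 5557 in the control tumor.

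The last comparison set members of the Treg-depleted tumor against those of the control tumor, with the same ratio between the tumors' interferon-low barcodes beside it. Of 6767 counted genes, 400 (5.91%) were at least 2-fold higher in the Treg-depleted members and 485 (7.17%) at least 2-fold lower, with a median of −0.06. The antiviral program itself was close: 3 of 47 antiviral effector genes were at least 2-fold higher and none lower (median 0.22, and 0.01 between interferon-low barcodes). Isg15 had a ratio of 0.37 (0.33 to 0.42), Cmpk2 0.61 (0.39 to 0.83), Usp18 −0.05 (−0.25 to 0.15) and Mx1 0.09 (−0.27 to 0.44). Members of both tumors had been chosen on genes of this program.

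Among the GTPase lists most genes were higher in Treg-depleted members. IRG genes were at least 2-fold higher in 9 of 11 cases (median 1.10, and 0.71 between interferon-low barcodes), and guanylate-binding protein genes in 5 of 9 with 1 lower (1.02 and 0.39). Iigp1 stood at 532 CPM in Treg-depleted and 134 CPM in control members (1.99, 1.82 to 2.16), with 1.60 between interferon-low barcodes. Igtp had 1.17 in members and −0.10 between interferon-low barcodes. In the JAK-STAT and IRF list 4 of 13 genes were higher (median 0.20), in the feedback list 1 of 9 (0.33) and in the MHC class I list 1 of 21 (0.18). Irf1 had 1.14 (0.96 to 1.31) and 0.52, Stat2 1.10 and 0.76, and Socs1 1.24 and 1.10. The gene of the class I activator Nlrc5 had 1.28 and 0.94. Cd274 was at 696 and 262 CPM in the 2 groups of members (1.41, 1.27 to 1.54), with 1.00 between interferon-low barcodes, and Pdcd1lg2, the gene of PD-L2, had 2.17 and 2.57. In the whole list of checkpoint and costimulatory ligands, 2 of 11 genes were at least 2-fold higher and 2 lower in Treg-depleted members. The list's median was 0.18, and −0.25 between interferon-low barcodes.

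Cxcl9 stood at 256 CPM in Treg-depleted and 510.2 CPM in control members (−0.99, −1.16 to −0.83), with −1.29 between interferon-low barcodes. Ccl5 had −1.18 in members, and −0.52 when barcodes with a UMI of other cell types' markers were left out. Cxcl10 was nearly level in members (0.25, 0.16 to 0.33) and lower in the Treg-depleted tumor between interferon-low barcodes (−1.07, −1.13 to −1.01). Irf7 was at −0.40 in members and −0.82 between interferon-low barcodes.

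**Figure D5:**
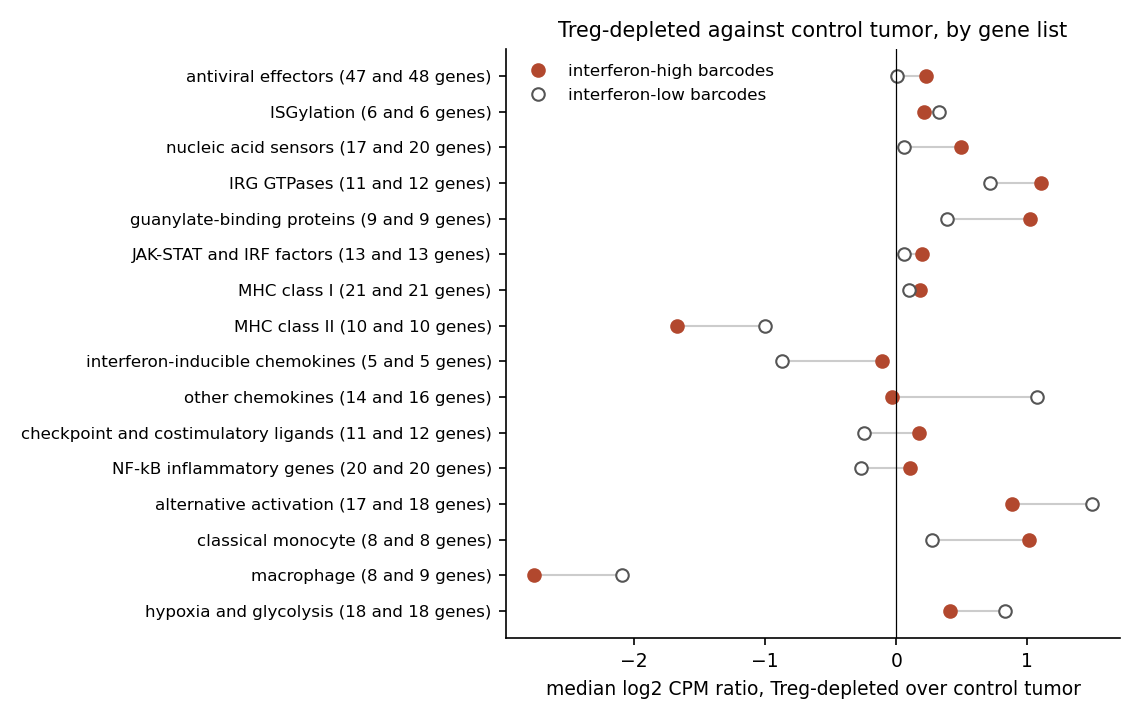
Median log2 CPM ratio of the Treg-depleted over the control tumor (x axis) for the counted genes of each list (rows), in interferon-high barcodes (red) and interferon-low barcodes (open). Macrophage genes lie at −2.76 and −2.09 and IRG GTPases at 1.10 and 0.71.

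Most macrophage and MHC class II genes counted were lower in Treg-depleted members, and their medians were lower also between the tumors' interferon-low barcodes. Macrophage genes were at least 2-fold lower in 6 of 8 cases and at least 2-fold higher in 1 (median −2.76, and −2.09 between interferon-low barcodes). MHC class II genes were at least 2-fold lower in 9 of 10 cases (−1.67 and −1.0). C1qa stood at 177 CPM in Treg-depleted and 1649 CPM in control members, H2-Ab1 at 2517 and 9725 CPM, and Apoe, the apolipoprotein gene, at 233 and 4131 CPM. Classical monocyte genes were higher in 4 of 8 cases (1.01, and 0.28 between interferon-low barcodes), with Ly6c2 at 1947 and 633 CPM. Without the Lyz2 clause this list's median was 0.43, that of macrophage genes stayed at or under −2.42 over every setting, and that of MHC class II at or under −1.60.

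Genes of alternative activation were at least 2-fold higher in 8 of 17 cases and lower in 1 (median 0.88, and 1.49 between interferon-low barcodes). Ccl24, an eotaxin gene, had the largest ratio of all, at 2732 CPM in Treg-depleted and 21.4 CPM in control members (6.99, 6.66 to 7.35), and 6.63 between interferon-low barcodes. Arg1, which encodes arginase, stood at 3431 and 409 CPM in the 2 groups of members (3.07), and Nos2, which encodes inducible nitric oxide synthase, at 165 and 20.8 CPM (2.98). Also among the 12 largest were S100a8, S100a9, G0s2, Retnlg and Gm5483, the melanoma genes Dct, Mlana and Pmel, and Erdr1, Ptgds and Slc7a2. Without barcodes of 10 or more S100a8 and S100a9 UMIs the ratio of S100a8 was 4.35 in place of 6.61. The median of the neutrophil list was 4.68 in members and 1.10 between interferon-low barcodes, and that of the melanoma list 3.80 and −1.04. With the melanoma-rich barcodes left out, Pmel, Dct and Mlana were at −0.76, −0.45 and −0.81.

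Of the cytokine genes Il12b and Il10 of T cell polarisation, Il10 was lower in Treg-depleted members, while Il12b had no direction that held over every setting. Il12b, a subunit gene of interleukin 12, had 0 UMIs in 238 Treg-depleted and 55.8 CPM in 341 control members, where 18 members carried it and 1 of them held 100 UMIs; against a floor of 3 UMIs (2.21 CPM) in the Treg-depleted group the log2 ratio was −4.66 or lower. When members with any UMI of the first 2 markers of another cell type were left out, this bound was 0.43, so that no direction was left for Il12b. Il10 stood at 5.89 CPM in Treg-depleted and 111 CPM in control members (−4.24, −5.46 to −3.25), with −3.92 between interferon-low barcodes. The Treg-depleted level of Il10 rests on 8 UMIs in 3 members. The costimulatory ligand gene Tnfsf9 had −3.07 in members and −0.94 between interferon-low barcodes. Further genes among the 12 smallest were Cd72, Apoe, Slamf9, Acp5, Gdf15, Clec4b1, Pltp, C1qa and Tmem176a.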

How the data were processed

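Droplet 3′ single-cell libraries (Chromium version 2) of sorted tumor myeloid cells were made, per the labels' protocols. Alignment to mm10 and counting used Cell Ranger 1.2, per the submitters' processing notes, and the authors deposited raw UMI counts per gene and barcode. The libraries held 23291061 UMIs in the Treg-depleted tumor, 42493416 in the control tumor and 22944387 in a blood library labelled WT, which enters no comparison.

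Barcodes were kept from 1000 UMIs and 400 genes up, where mitochondrial transcripts made up 10% or less. The members, markers and gene lists were chosen with earlier results of these data known. UMIs were summed over the barcodes of a group and given as CPM, which is not scaled by gene length. Ratios carry exact conditional 95% intervals and shares exact Clopper-Pearson intervals, both for counting error only; with 1 library a group no test was made. Genes with at least 10 expected UMIs in the smaller group were counted, a group at 0 was set to a floor of 3 UMIs, and genes past 2-fold were tallied. Named genes were the 12 largest and 12 smallest ratios among genes at 50 CPM or more in either group, with the members of the gene lists. Barcodes with the highest scores against simulated doublets (0.8% for each 1000 barcodes) stayed in, and leaving them out was an alternative, as were other thresholds, scalings and comparison groups. Scripts were tested on simulated data. Python 3.11.15, numpy 2.4.6, scipy 1.17.1, pandas 2.3.3, scikit-learn 1.9.0 and matplotlib 3.10.9 were used. Results on some genes are not reported here.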

Additional observations from a re-analysis of the deposited data

Results flagged for a closer look

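Of the 6894 genes counted in both tumors, 7 differed at least 2-fold between interferon-high and interferon-low barcodes in opposite directions by tumor. Each tumor is 1 library, so the difference between tumors was not tested. Il12b had a log2 ratio of −1.90 in the Treg-depleted tumor, with 0 UMIs in members set to the floor, and 1.44 in the control tumor. The control value was 0.05 with members at 0.15% or more. Tnfsf9 had −1.05 in the Treg-depleted and 1.08 in the control tumor, on 15 and 315 UMIs in members. Over all settings Tnfsf9 ran from −2.13 to −0.56 in the Treg-depleted and from 0.82 to 1.27 in the control tumor. Lepr had −1.26 and 1.11, and Hspb1 had −2.76 and 1.17. S100a8 had 2.94 and −2.0, S100a9 had 2.89 and −1.47, and G0s2 had 2.03 and −1.77 in these tumors. Without barcodes of 10 or more S100a8 and S100a9 UMIs the Treg-depleted ratios were 0.44 for S100a8, 0.06 for S100a9 and 0.72 for G0s2.

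In the blood library, which no comparison used, 206 of 5550 filtered barcodes (3.71%, 3.23 to 4.24) met the rule.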

How the results depend on the processing

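No paired analysis was possible because each group is 1 library, and for the same reason no replicate could be left out. No list median at 2-fold or beyond changed sign; of the medians recomputed under other settings 124 moved and 992 stayed within the interval around them. Of named-gene ratios 812 moved, 2357 did not and 5 that were at 2-fold or beyond turned; smaller ratios that changed sign count among those that moved or did not. Of the share of interferon-high barcodes, the Treg-depleted and control values were 7.15% and 9.12% at a sum of at least 4 UMIs, 3.36% and 5.58% at 10, 3.97% and 4.75% at 0.15% of UMIs, 1.96% and 3.56% with the 4 Ifit genes alone, 2.66% and 2.08% with at least 2000 UMIs and 0.3%, and 9.65% and 6.78% after thinning. Without a Lyz2 minimum the Treg-depleted share was 12.1%, and with each library's own UMI threshold the control share was 8.54%. Between the tumors' members, genes at least 2-fold higher numbered 632 without the Lyz2 minimum, 248 with the Ifit genes alone and 211 at 30 or more expected UMIs, where 218 were lower. At that filter the Treg-depleted tumor had 126 genes higher and 67 lower in members, and the control tumor 62 lower; as a mean over barcodes it had 335 lower. Directions turned for S100a9 in the control tumor (0.17 with the library's own UMI threshold), for Pmel, Dct and Mlana between tumors (−0.76, −0.45 and −0.81 without the melanoma-rich barcodes) and for the Il12b bound between tumors (0.43). The cause was not tested. Depth limits genes under about 10 expected UMIs, and 1 library a group leaves animal, library and depletion inseparable.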
